A study of Mus musculus with 27 samples.

Results

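The P3 cells of the periosteum were compared with the P3 cells of the bone marrow, 3 libraries against 3, out of the 27 libraries of the series. P3 is the fraction of Prx1-tdTomato cells without CD45 that carried CD105 on the surface, with CD200 variable. The 6 libraries were chosen by their labels alone, and no measured value entered the choice. All cells came from femur and tibia of Prx1-CreER/Ai14/Rag1 mice of both sexes, aged 8 to 12 weeks and killed 3 days after the last tamoxifen. In these animals the Prx1 promoter drives a tamoxifen-dependent Cre, the Ai14 allele turns on tdTomato in cells where Cre acted and in their progeny, and the mutated Rag1 locus leaves the mice without mature B and T cells, so that both tissues lack those cells. The marrow was flushed out of bones whose ends had been cut off, and the periosteum was scraped off and digested with collagenase and DNase for 20 minutes at body temperature. Tissue and method of release therefore differed together and cannot be told apart. The other 2 sorted fractions, P1 (CD105- CD200+) and P2 (CD105- CD200-), enter below only where the tissue difference of P3 was tested against theirs.

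CD105, encoded by Eng, is a co-receptor for ligands of the TGF-beta family and is also a classical surface protein of endothelial cells and of early erythroid cells. Bone is built and repaired from progenitors of the limb mesenchyme, which lie in the periosteum on the outer surface and around the vessels of the marrow inside. The periosteal layer borders on tendon insertions, fibrous tissue and growth cartilage, whereas the marrow stroma is known for the factors that hold blood stem cells in place.

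The measured values were normalized counts per gene from full-length cDNA libraries. The values of a library summed to 9988963, 11988767 and 10092277 in periosteum P3 and to 8639660, 9804633 and 10311876 in bone marrow P3. Periosteum replicate 2 stood apart, with 12397 genes above 0 against 15246 and 16586 in the other 2 periosteum libraries and 16802 to 17448 in the marrow. Between replicates, Pearson's r of log2 values over the 13114 genes tested lay between 0.590 and 0.725 in periosteum and between 0.846 and 0.909 in marrow, and the median SD of a gene was 1.21 and 0.52. The commonest value above 0 at the low end was 0.455 to 0.959 in these libraries, so levels of a few units lie near the floor. Marrow replicate 1 also stood apart in the stromal genes described below. Counts that changed with single libraries left out are given with those values.

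Of the 13114 genes tested, 816 were differentially expressed genes (DEGs), called by limma where the adjusted p was under 0.05 and the log2 fold change (the difference of log2 means, periosteum minus marrow) exceeded 1.5 in either direction. That is 6.22% of the genes, with 407 higher (3.10%) and 409 lower (3.12%) in periosteum. Higher DEGs were mostly well expressed, with a median periosteum level of 2049.6 and only 6 below 100, whereas 171 of the lower DEGs had a marrow mean below 100 and 142 were listed at 0 in all 3 periosteum libraries. Genes had to reach 10 in at least 3 of the 6 libraries to be tested. A gene at 0, or below 10, in all libraries of 1 tissue therefore entered only through the other, and its separation was fixed in advance. Without that filter, 216 DEGs were higher and 100 lower. Over all genes tested the log2 fold change had a median of -0.47, which was -0.10 after quantile normalization and -0.61 after rescaling to the same total. In 13.0% of the genes every periosteum library lay above every marrow library and in 18.6% every marrow library lay above, and all 816 DEGs were of these kinds. Quantile normalization gave 667 DEGs higher and 486 lower, a split tilted to periosteum. A minimum mean of 50 tilted it the same way, with 384 higher and 209 lower. Rescaling to the same total tilted it to marrow, with 326 higher and 461 lower, as did a fit to all 27 libraries, with 565 and 782, and leaving out periosteum replicate 3, with 275 and 704. Leaving out periosteum replicate 2 raised the count to 1161 (485 higher, 3.70%, and 676 lower, 5.15%). Without marrow replicate 1 it was 883, without marrow replicate 2 it was 392, without marrow replicate 3 it was 318, and without periosteum replicates 1 and 3 it was 524 and 979. Of the 816 DEGs, 260 were called whichever library was left out, 106 higher and 154 lower in periosteum.

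**Figure D1:**
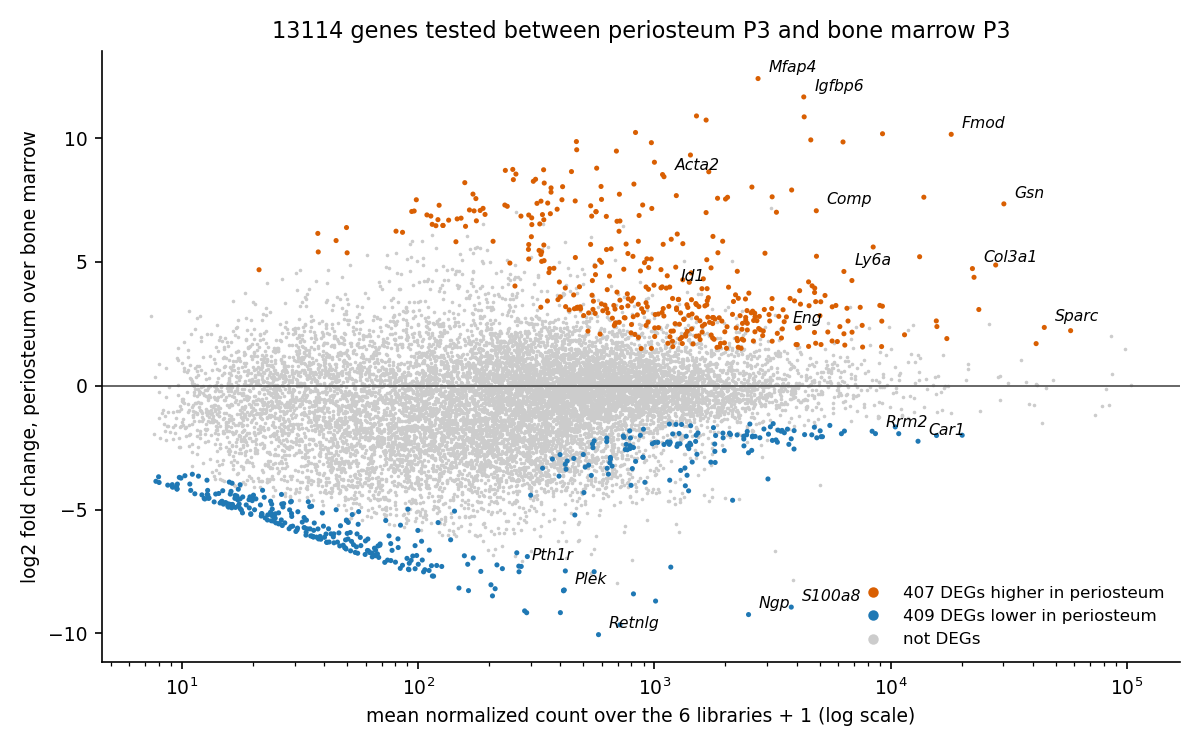
Each point is 1 of the genes tested, with its mean normalized count over the 6 P3 libraries plus 1 on the horizontal log axis and its log2 fold change (periosteum over bone marrow, on log2(normalized count + 1)) on the vertical axis. DEGs higher in periosteum (407, orange) lie mostly at mean counts above 100, and many of the 409 lower DEGs (blue) lie along the lower left edge, where the periosteum libraries are at or near 0.

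The genes of the sort were examined first. Eng was at 6206, 7328 and 3763 in periosteum replicates 1, 2 and 3 and at 1739.5, 774 and 1072 in the marrow replicates. All periosteum libraries lay above all marrow libraries, with a log2 difference of 2.30 (standard error 0.40, adjusted p = 0.0173). Its adjusted p was 0.0643 without marrow replicate 2, 0.0772 without marrow replicate 3 and 0.0612 without periosteum replicate 1. The mean of Eng was 69.5 to 109 in the P1 and P2 groups of either tissue, which were sorted as CD105-, so both P3 groups carried the transcript of their label. Cd200, the other surface protein of the sort, was at 5554, 4326 and 3700.4 in periosteum and at 905, 473 and 451 in marrow. It was a DEG with a log2 difference of 2.95 (standard error 0.37, adjusted p = 0.00978) and stayed one whichever library was left out. P3 was not gated on CD200, so the amount of Cd200 transcript was free to vary.

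Prrx1, the limb mesenchyme factor whose promoter drives the Cre, was at 1649, 2183 and 1153 in periosteum and at 725, 132 and 147 in marrow. The groups did not overlap, but the log2 fold change of 2.73 (standard error 0.70) missed the threshold with an adjusted p of 0.065. Without marrow replicate 1 it was 3.51 with an adjusted p of 0.0134. The single entry for the transgenes was at 11165, 11837 and 6153 in periosteum and at 7779, 4005 and 4187 in marrow, with overlap. Ptprc encodes the CD45 that the sort excluded. It was at 4.2, 2.8 and 19.7 in periosteum and at 308, 66.5 and 321 in marrow, with a log2 difference of -4.67 (standard error 1.33, adjusted p = 0.0863). In bulk libraries, fewer cells of a type and less RNA per cell cannot be told apart.

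**Figure D2:**
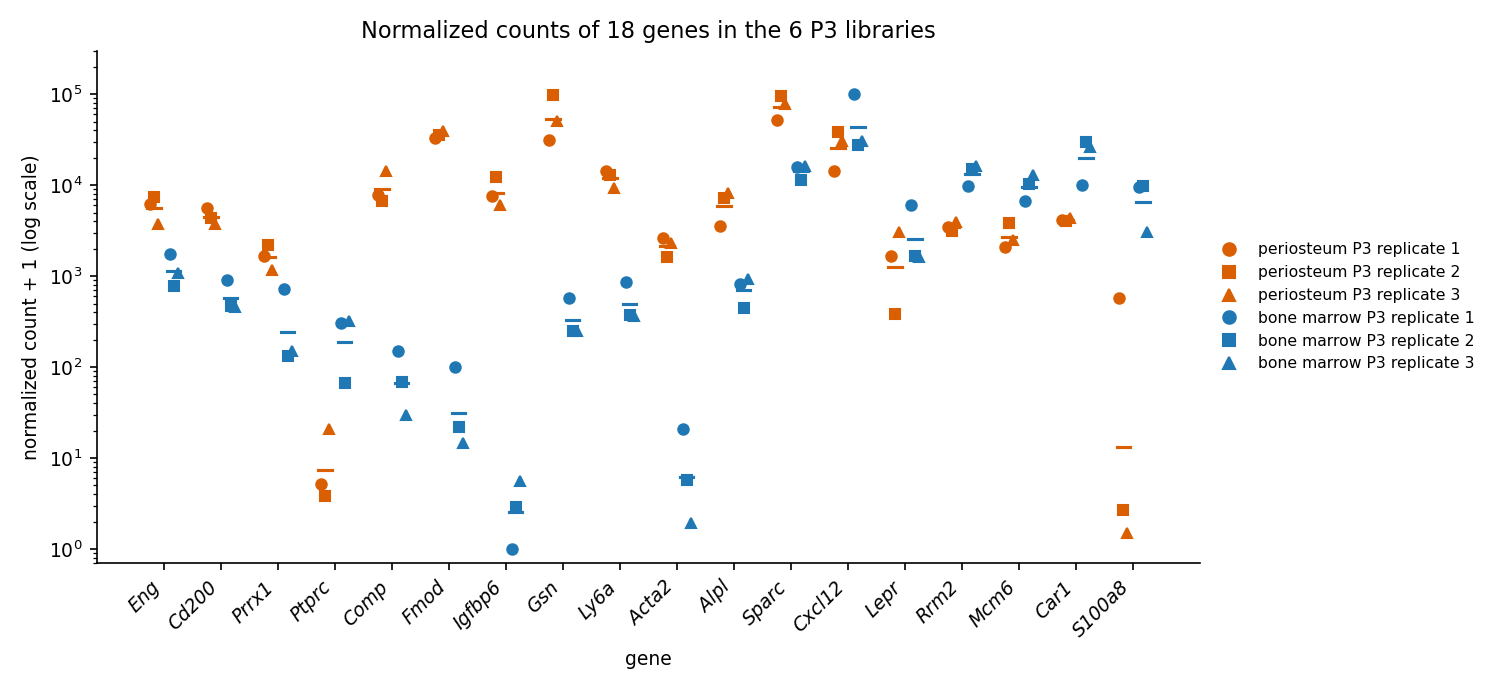
Normalized counts plus 1 (log axis) of 18 genes in the 3 periosteum P3 libraries (orange) and the 3 bone marrow P3 libraries (blue), with the marker shape giving the replicate and the bar the mean on the log2 scale. Fmod, Gsn, Igfbp6 and Comp are separated by a wide gap, Cxcl12 and Lepr overlap between the tissues, and Rrm2, Mcm6 and Car1 are lower in all periosteum libraries.

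The genes of 27 lists were then read by role, 443 genes tested in all. Members named beyond the naming rule were chosen after their values were seen. They are Car1, Cd34, Cdc25c, Col8a1, Col9a1, Col9a2, Coro1a, Dkk2, Gata1, Gdf10, Hspa1a, Ier3, Inhba, Ltbp4, Lyz2, Mki67, Pola1, Rgs5, Rhd, Slc4a1, Sox9, Tnmd, Trim10, Tubb1, Wnt5a and Wnt9a. Of the 443 genes, 134 were DEGs. Over all genes tested, 3.10% were DEGs higher and 3.12% DEGs lower in periosteum, the shares to set beside each count below.

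The cartilage list had the highest median of the 27 lists. Of 21 cartilage genes tested, 16 were DEGs higher in periosteum and none lower, with a median log2 fold change of 7.07 against -0.47 over all genes. The other 5 were not DEGs, and 3 of the 21 had a negative log2 fold change, the lowest -1.75. Comp, an oligomeric matrix protein of cartilage and tendon, was at 7838, 6620.1 and 14367 in periosteum and at 148, 67.9 and 29.1 in marrow. The gap was far wider than the spread within either tissue, with a log2 difference of 7.07 (standard error 0.63, adjusted p = 0.00477). Cilp, a matrix protein of the intermediate layer of cartilage, was at 6545, 13507 and 5766 against 0.715, 8.69 and 3.79, with a log2 difference of 10.86 (standard error 0.88, adjusted p = 0.00388). The marrow values of Cilp lie near the floor, so the size of its fold rests on the pseudocount of 1. Chad, a leucine-rich protein that binds collagen in cartilage, was at 19406, 19279.9 and 16613 against 121, 0.952 and 15.9, with a log2 difference of 10.18 (standard error 1.30, adjusted p = 0.00978).

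The collagens typical of cartilage were less uniform. Col2a1, the main fibril collagen of cartilage, was at 12002, 62110.3 and 83882 in periosteum and at 775, 403 and 7865 in marrow. Its lowest periosteum library was close to its highest marrow library, and its call was marginal (log2 fold change 4.88, standard error 1.15, adjusted p = 0.0498). It was lost with every library left out except marrow replicate 3, with an adjusted p from 0.0536 without periosteum replicate 1 to 0.161 without marrow replicate 2. Col9a1, a partner of type II collagen, was at 752, 1614 and 3450.3 in periosteum and at 0, 0 and 4.72 in marrow (log2 fold change 9.82, standard error 1.31, adjusted p = 0.00978). Sox9, the transcription factor that sets the chondrocyte program, was at 426, 604 and 377 against 38.7, 7.69 and 8.49, with a log2 difference of 4.95 (standard error 1.10, adjusted p = 0.0398) and an adjusted p of 0.144 and 0.145 without marrow replicates 2 and 3, 0.0884 without periosteum replicate 1 and 0.063 without periosteum replicate 3. The summed level of the list was 52951 to 153913 in periosteum and 1568 to 10544 in marrow. The count of cartilage DEGs was 7 without marrow replicate 2 or 3, 9 without periosteum replicate 3, 12 without marrow replicate 1 or periosteum replicate 1, and 14 without periosteum replicate 2. Comp, Cilp, Chad, Col9a1 and Col9a2 made up the 5 called whichever library was left out. The marrow values of Cilp and Col9a1 were all below 10, so both could pass the filter only through periosteum. Their separation was fixed in advance.

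**Figure D3:**
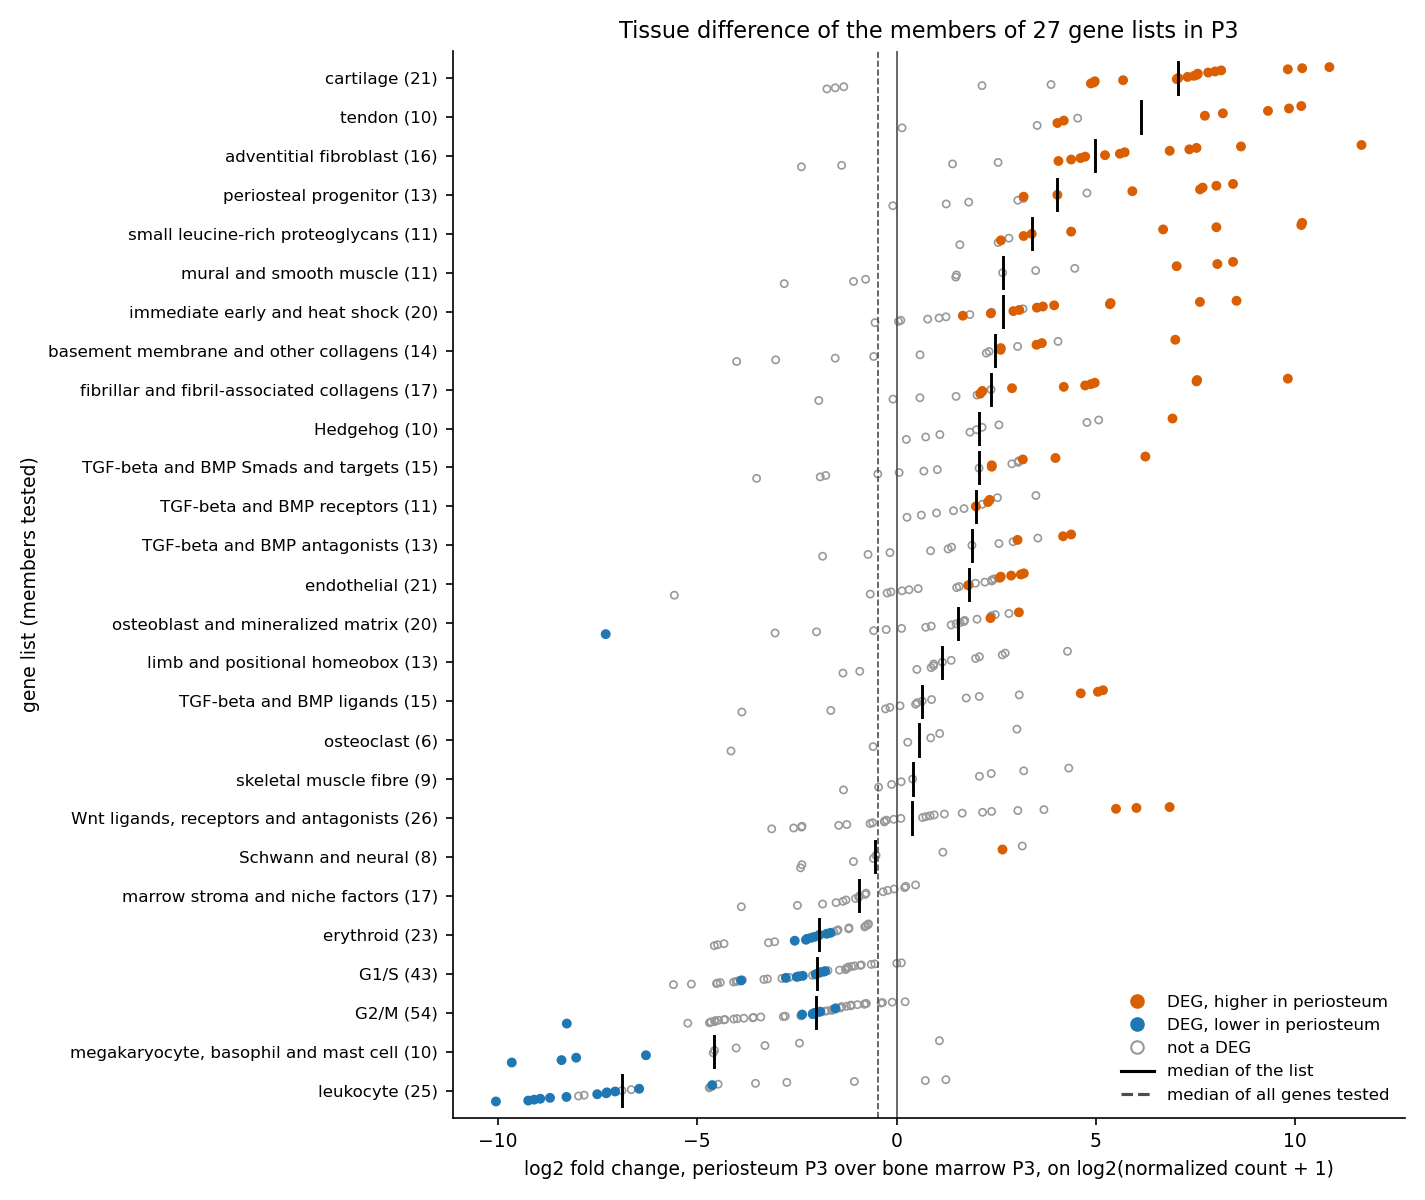
Log2 fold changes (horizontal axis, periosteum over bone marrow on log2(normalized count + 1)) of the tested members of 27 gene lists, ordered by the list median (black bar); filled points are DEGs and open points are not. Cartilage, tendon and adventitial fibroblast lists sit at medians of 7.07, 6.14 and 4.98, and leukocyte genes at -6.89, around a median of all genes of -0.47 (dashed line).

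Tendon and small leucine-rich proteoglycan genes came next. Of 10 tendon genes tested, 7 were DEGs higher in periosteum (median log2 fold change 6.14), and of 11 proteoglycan genes 8 were (median 3.39), none being lower in either list. Fmod, which encodes fibromodulin, a proteoglycan that controls the width of collagen fibrils, was at 32987, 35947 and 39232 in periosteum and at 98.2, 20.8 and 13.5 in marrow. Its periosteum libraries were close to each other, and the log2 fold change was 10.15 (standard error 0.68, adjusted p = 0.0024). Tnmd, tenomodulin, a membrane protein of tenocytes, was at 1562, 5197 and 1751 against 6.38, 2.84 and 0.93 (log2 fold change 9.32, standard error 1.07, adjusted p = 0.00978). With all its marrow values below 10, Tnmd could pass the filter only through periosteum. Thbs4, a thrombospondin of tendon and muscle attachment, was at 14174, 10708 and 12782 against 12.7, 3.78 and 37.1 (log2 fold change 9.85, standard error 0.76, adjusted p = 0.00388). Dcn, decorin, which binds collagen and TGF-beta, was at 36519, 60198 and 32245 against 2564, 1218 and 2509.8. It differed by 4.38 (standard error 0.39, adjusted p = 0.00477). Tnc, tenascin C, was a listed tendon gene that did not pass, at 4299, 11349 and 11765 against 15206, 4767 and 5948, and its log2 fold change of 0.14 turned to -0.16 after quantile normalization. The tendon count was 4 without marrow replicate 3 and 5 to 7 with another library left out. The proteoglycan count was 4 without marrow replicate 3, 5 without marrow replicate 2, and 6 to 8 otherwise.

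Among collagens, 10 of 17 fibrillar and fibril-associated members were DEGs higher in periosteum (median log2 fold change 2.37), as were 5 of 14 basement membrane and other members (median 2.47). In these lists 2 and 4 members had a negative log2 fold change, down to -1.95 and -4.01, and none was a DEG lower in periosteum. Col3a1, the fibril collagen of soft connective tissue, was at 25909.6, 32392 and 68906.5 in periosteum and at 4234, 979.7 and 741 in marrow (log2 fold change 4.73, standard error 0.68, adjusted p = 0.00984). Col8a1, a short-chain collagen of vessel walls, was at 10147, 10955 and 7847 against 1659, 551 and 484 (log2 fold change 3.65, standard error 0.48, adjusted p = 0.00978). Both were called whichever library was left out. Col1a1 and Col1a2, the chains of the collagen of bone and tendon, overlapped between the tissues. Col1a1 was at 45531, 193629 and 157734 in periosteum and at 9217, 29141 and 77698 in marrow, and its log2 fold change of 2.02 (standard error 0.83) had an adjusted p of 0.21. The fibrillar count ranged from 4 without marrow replicate 3 to 7 without periosteum replicate 2, and it was 5 without marrow replicate 2 or periosteum replicate 3 and 6 without marrow replicate 1 or periosteum replicate 1. The other collagen count was 1 without periosteum replicate 1, 2 without marrow replicate 2 or 3 or periosteum replicate 3, 3 without periosteum replicate 2, and 8 without marrow replicate 1.

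Bone genes differed less than cartilage genes. Of 20 osteoblast and mineralized matrix genes tested, 2 were DEGs higher and 1 lower in periosteum, with a median log2 fold change of 1.54. Over all genes 3.10% were higher and 3.12% lower, so that the 1 lower gene is near that share. Alpl, the alkaline phosphatase that frees phosphate for mineral, was at 3531, 7136 and 8152 in periosteum and at 828, 447 and 934 in marrow. All periosteum libraries lay above the marrow, with a log2 difference of 3.07 (standard error 0.44, adjusted p = 0.00984). Sparc, osteonectin, a calcium-binding matrix protein, was at 51861, 95422 and 77790.5 against 15655, 11292.5 and 16248 (log2 fold change 2.36, standard error 0.31, adjusted p = 0.00978). These 2 genes were called with each library left out. Pth1r, the receptor for parathyroid hormone and for the product of Pthlh, went the other way, at 0, 0 and 24.3 in periosteum and at 973, 344 and 291 in marrow (log2 fold change -7.30, standard error 1.61, adjusted p = 0.0398). The Pth1r call was lost without any 1 of the marrow libraries (adjusted p = 0.105, 0.145 and 0.144) and without periosteum replicate 1 (0.0853).

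The regulators of the osteoblast line did not pass the test. Runx2, the factor that starts the osteoblast program, was at 268, 217 and 1306 in periosteum and at 1636, 205 and 174 in marrow, where a single library was high in each tissue. Its log2 difference of 0.13 (standard error 1.05, adjusted p = 0.957) turned to -0.03 after rescaling to the same total. Sp7, osterix, was at 125, 377 and 389 against 215, 127 and 146 (adjusted p = 0.585). Bglap, osteocalcin of mature osteoblasts, was at 689, 14972 and 23181 against 365, 3256 and 11632 (adjusted p = 0.631), and reads may be split with its near-identical neighbour Bglap2. Spp1, osteopontin, was at 22937, 61881 and 37801 against 20071, 1282 and 12064 (log2 fold change 2.48, standard error 0.95, adjusted p = 0.185).

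Adventitial fibroblasts lie around vessels and on fascia. Of 16 of their marker genes tested, 12 were DEGs higher in periosteum and none lower, with a median log2 fold change of 4.98. The other 4 were not DEGs, and 2 of the 16 had a negative log2 fold change, the lowest -2.39. Igfbp6, a binding protein for insulin-like growth factor II, was at 7536, 12133 and 6051 in periosteum and at 0, 1.88 and 4.62 in marrow, which gave a log2 difference of 11.66 (standard error 0.94, adjusted p = 0.00388). With all its marrow values below 10, Igfbp6 could pass the filter only through periosteum. Gsn, gelsolin, an actin-severing protein, was at 31595, 97981 and 50248 against 578, 249.5 and 249 (log2 fold change 7.35, standard error 0.50, adjusted p = 0.0024). Ly6a, which encodes the stem cell antigen Sca-1, was at 14252, 12787 and 9417 against 854, 372 and 365 (log2 fold change 4.62, standard error 0.40, adjusted p = 0.00477). Cd34, a surface sialomucin of fibroblasts, endothelium and blood progenitors, was at 11751, 9878 and 6665 against 387, 318 and 117 (log2 fold change 5.23, standard error 0.50, adjusted p = 0.00581). The count was 9 without marrow replicate 2 or 3 and 11 or 12 otherwise, and 9 of the 12 genes were called whichever library was left out.

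Of 13 periosteal progenitor genes tested, 7 were DEGs higher in periosteum and none lower (median log2 fold change 4.03). Aspn, asporin, a proteoglycan of the periodontal ligament and periosteum, was at 4383, 7397 and 3676 against 7.85, 22.9 and 31 in marrow (log2 fold change 8.02, standard error 0.68, adjusted p = 0.00461). Acta2, smooth muscle actin, which marks mural cells and a subset of periosteal progenitors, was at 2622, 1619 and 2316 against 19.9, 4.77 and 0.937 (log2 fold change 8.44, standard error 1.11, adjusted p = 0.00978). Thbs2, a thrombospondin of connective tissue, was at 6056, 8579 and 11401 against 1145, 247 and 472 (log2 fold change 4.03, standard error 0.56, adjusted p = 0.00978). Several genes often used to define periosteal cells did not pass. Postn, periostin, named after this tissue, was at 149.8, 3446 and 7784 against 439.7, 30.9 and 384, so that its lowest periosteum library lay below 2 marrow libraries (adjusted p = 0.284). Ctsk, the protease cathepsin K, was at 1551, 885 and 2544 against 919, 271 and 323 (adjusted p = 0.133). Pdgfra, the receptor for platelet-derived growth factor on fibroblasts, was at 1569, 3632 and 2033 against 1927, 626 and 719 (adjusted p = 0.218). The count was 4 without marrow replicate 3, 5 without periosteum replicate 3, and 6 or 7 otherwise.

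No marrow stroma or niche gene was a DEG in either direction, where 6.22% of all genes were, so that a count of 0 among 17 is near that share. The median of the 17 tested was -0.93, and 14 had a negative log2 fold change. Cxcl12, the chemokine that holds blood stem cells in the marrow, was at 14272, 38432 and 30393 in periosteum and at 101060, 27731 and 30573 in marrow. The tissues overlapped, and marrow replicate 1 alone stood high (log2 fold change -0.79, standard error 0.58, adjusted p = 0.445). Lepr, the leptin receptor of perivascular stroma, was at 1643, 387 and 3058 against 6112, 1651 and 1634 (adjusted p = 0.485). Grem1, a secreted BMP antagonist, was at 77.1, 132 and 245 against 1101, 403 and 269.8, lower in every periosteum library but not past the test (log2 fold change -1.85, standard error 0.78, adjusted p = 0.217). The summed level of the list was 167471 in marrow replicate 1 and 46694 and 47392 in the other marrow libraries, against 26420 to 58270 in periosteum. Without marrow replicate 1 the median moved to -0.29, and again no member was a DEG.

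**Figure D4:**
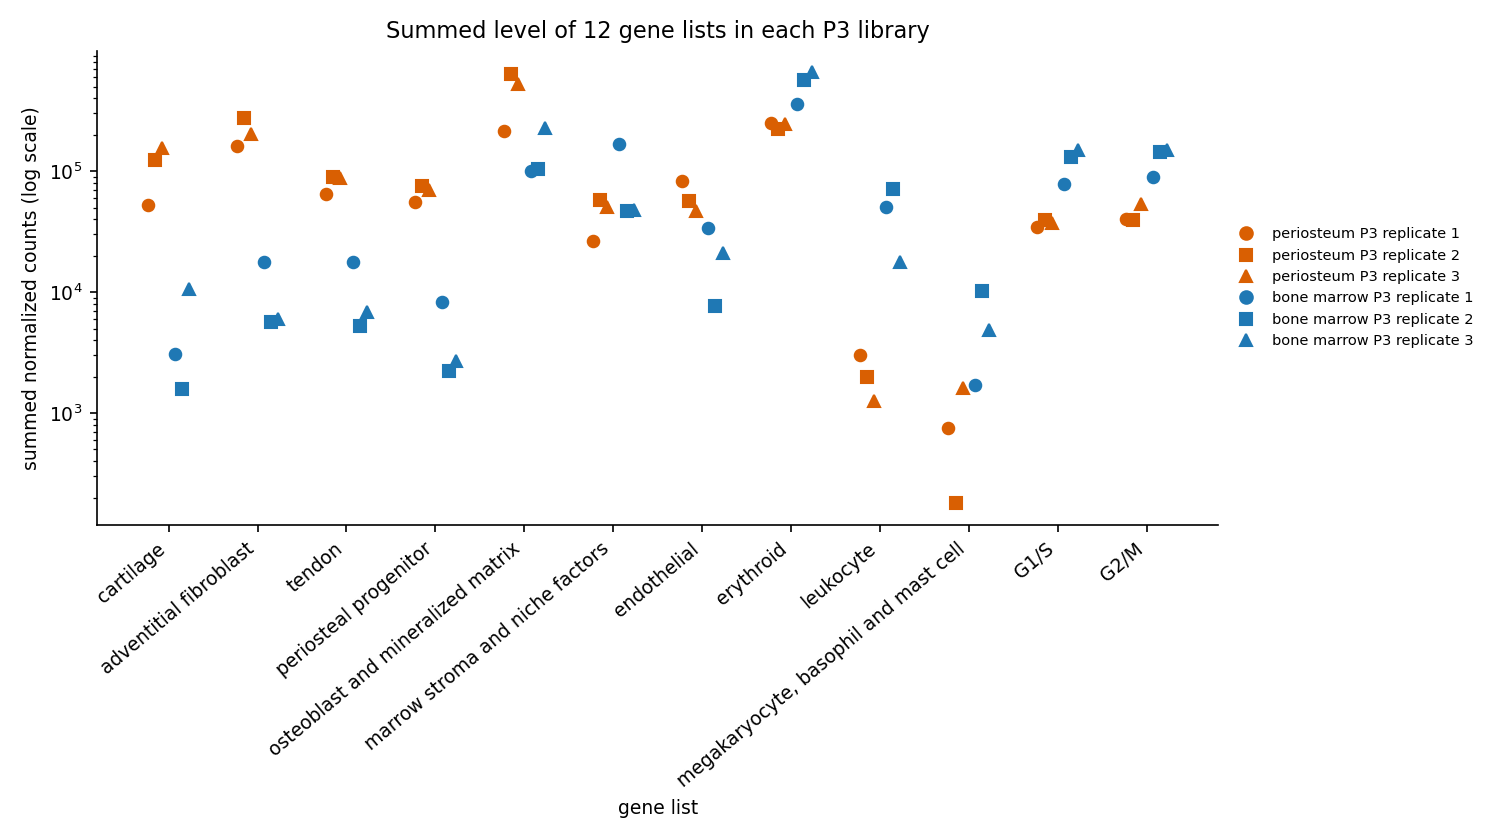
Summed normalized counts (log axis) of the members of 12 gene lists in each of the 6 P3 libraries, periosteum in orange and bone marrow in blue. Cartilage, tendon, fibroblast and periosteal sums are higher in all periosteum libraries, leukocyte, erythroid and cell cycle sums in all marrow libraries, and marrow replicate 1 (blue circle) is the highest marrow library for fibroblast, tendon and stromal genes.

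Endothelial genes were present in both tissues, and 6 of 21 were DEGs higher in periosteum with none lower (median log2 fold change 1.82). Pecam1, an adhesion protein of the endothelial junction, was at 8136, 4691 and 3176 against 985, 655 and 815 (log2 fold change 2.61, standard error 0.40, adjusted p = 0.0114). Flt1, a receptor for vascular endothelial growth factor, was at 6927, 6340.3 and 3642 against 790.2, 490.1 and 628 (log2 fold change 3.12, standard error 0.36, adjusted p = 0.00978). Both kept their call with each library left out, and the count of the list was 2 without marrow replicate 3, 3 without periosteum replicate 1, 4 without periosteum replicate 3 and 9 without marrow replicate 1. The summed endothelial level was 47253 to 83096 in periosteum and 7743 to 34203 in marrow. Of 11 mural genes 3 were DEGs higher in periosteum. Rgs5, a regulator of G protein signaling in pericytes, was at 1417, 652 and 1298 against 12.7, 6.29 and 4.41 (log2 fold change 7.03, standard error 0.99, adjusted p = 0.00984). Abcc9, a potassium channel subunit that also marks pericytes, overlapped, at 70.5, 1920.2 and 653 against 1988, 321 and 1319 (adjusted p = 0.623). The mural count was 2 without marrow replicate 2, marrow replicate 3 or periosteum replicate 3, and 5 without marrow replicate 1. Of the other endothelial and mural members, 4 and 3 had a negative log2 fold change, down to -5.57 and -2.82. Leaving out periosteum replicate 3 gave 1 endothelial gene called lower, as did quantile normalization. The summed levels of both lists were higher in all periosteum libraries, as was Eng, itself an endothelial gene, and the part of such cells in the Eng difference was not tested. None of the 9 muscle fibre and 6 osteoclast genes tested was a DEG, against 6.22% of all genes. Without periosteum replicate 2, the muscle genes Acta1 (log2 fold change 4.97, adjusted p = 0.0292) and Myl1 (5.13, adjusted p = 0.0304), the latter chosen after its values were seen, were DEGs higher in periosteum. Of 8 Schwann and neural genes 1 was a DEG, beside 6.22% of all genes. It was Pmp22, a myelin protein that fibroblasts also express (log2 fold change 2.65, adjusted p = 0.0172, and 0.0685 without marrow replicate 2, 0.0618 without marrow replicate 3 and 0.0592 without periosteum replicate 1).

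Because the gate rests on a co-receptor of the TGF-beta family, that pathway was read from ligand to target, beside the 3.10% of all genes called higher. Of 15 ligands tested (median log2 fold change 0.64), Tgfb3, Gdf10 and Inhba were DEGs, all higher in periosteum. A negative log2 fold change was seen in 4 ligands, down to -3.88. Tgfb3, which encodes TGF-beta 3, was at 3925, 5266 and 3708 in periosteum and at 293, 137 and 125 in marrow (log2 fold change 4.62, standard error 0.44, adjusted p = 0.00572) and was called with each library left out. Bmp4 was at 647, 584 and 499.8 against 1149, 212 and 287 and did not pass the test (log2 fold change 0.48, adjusted p = 0.702). Of 11 receptors (median log2 fold change 1.99), Eng, Tgfbr2 and Bambi were DEGs, all higher. Tgfbr2, the type II receptor for TGF-beta, was at 3430.2, 3906 and 3476 against 1315, 316 and 868 (log2 fold change 2.34, standard error 0.51, adjusted p = 0.0394). No receptor was called without marrow replicate 2 or 3 or periosteum replicate 1. The adjusted p of Tgfbr2 was above 0.05 with each library left out except marrow replicate 1, up to 0.114.

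Of 13 secreted antagonists and binding proteins, 3 were DEGs higher in periosteum, and Dcn and Ltbp4 were called whichever library was left out. The median of the 13 was 1.89, and 3 had a negative log2 fold change, down to -1.85. Ltbp4, which holds latent TGF-beta in the matrix, was at 2944, 3299 and 1734 against 209.6, 148 and 89.6 (log2 fold change 4.18, standard error 0.49, adjusted p = 0.00978). Of 15 Smads and target genes (median log2 fold change 2.07), 4 were DEGs higher. Another 4 of the 15 had a negative log2 fold change, down to -3.51. Id1 and Id3, inhibitors of basic helix-loop-helix factors and direct targets of BMP signaling, were the steady members. Id1 was at 2745, 2098 and 1674 against 134, 75.3 and 234 (log2 fold change 3.99, standard error 0.53, adjusted p = 0.00978). Id3 was at 10361, 15426 and 13939 against 2717, 886 and 1272 (log2 fold change 3.17, standard error 0.43, adjusted p = 0.00978). No gene of the 4 pathway lists was a DEG lower in periosteum in the fit of all 6 libraries. Tgfb1, the ligand TGF-beta 1, chosen after its values were seen, was called lower without periosteum replicate 2 (log2 fold change -3.37, adjusted p = 0.0289) and without periosteum replicate 3 (-4.48, adjusted p = 0.0395). With 1 library left out the counts of higher calls were 1 to 3 for ligands, 0 to 4 for receptors, 2 to 4 for antagonists and 2 to 6 for targets, the highest of the last 3 without marrow replicate 1.

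The Wnt and Hedgehog families were read beside the 3.10% of all genes called higher. Of 26 Wnt genes 3 were DEGs higher in periosteum, Wnt5a, Wnt9a and Dkk2, and of 10 Hedgehog genes only Hhip, a decoy that binds Hedgehog ligands. The Wnt list had a median log2 fold change of 0.38, with 14 members positive and 12 negative, down to -3.13. All 10 Hedgehog members were positive, with a median of 2.08. Wnt5a, a ligand of the non-canonical branch, was at 387, 854 and 457 against 44.7, 3.85 and 6.3 (log2 fold change 5.51, standard error 1.23, adjusted p = 0.0412). No Wnt gene was called without marrow replicate 2 or 3, where the adjusted p of Wnt5a was 0.135 and 0.147. Hhip was at 685, 1149 and 155 against 0.794, 18.2 and 1.05 (log2 fold change 6.91, standard error 1.48, adjusted p = 0.0359), and its adjusted p was 0.0825 and 0.148 without marrow replicates 1 and 3, 0.0693 without marrow replicate 2 and 0.0829 without periosteum replicate 1. None of 13 limb and positional homeobox genes was a DEG, against 6.22% of all genes, and 11 of the 13 had a positive log2 fold change. Without marrow replicate 1, Prrx1 was called, and without periosteum replicate 2, Hoxc8, chosen after its values were seen, was called higher (log2 fold change 4.44, adjusted p = 0.0477).

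Immediate early and heat shock genes, which are known to rise within minutes of growth factor, mechanical or proteotoxic stimuli, were read as 1 list. Of 20 tested, 11 were DEGs higher in periosteum, none lower, with a median log2 fold change of 2.66. Ier3, an early gene that protects from apoptosis, was at 5426, 6057 and 5667 in periosteum and at 268, 80.3 and 124 in marrow (log2 fold change 5.35, standard error 0.48, adjusted p = 0.00477). Hspa1a, an inducible chaperone of the Hsp70 family, was at 5348, 3721 and 3151 against 403, 174 and 429 (log2 fold change 3.67, standard error 0.45, adjusted p = 0.00978). These 2 genes were called with each library left out. Fos, a subunit of the AP-1 factor, was at 28011, 51149 and 42938 against 14128, 2132 and 3383 (log2 fold change 3.08, standard error 0.66, adjusted p = 0.0352), with an adjusted p above 0.05 with each library left out except marrow replicate 1 and up to 0.147. Jun, its partner, overlapped at 11933, 11835 and 12937 against 14480.1, 2819 and 3387 (log2 fold change 1.24, adjusted p = 0.258). Marrow replicate 1 was the marrow library with the highest sum of the list, 65960 against 16506 and 21119, and without it 14 genes were DEGs. The count was 2 without marrow replicate 3, 4 without periosteum replicate 1 or 3, 6 without marrow replicate 2 and 9 without periosteum replicate 2. The periosteum was digested at body temperature and the marrow was not, and the part of that step in these genes was not tested.

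On the marrow side, the leukocyte list had the lowest median of the 27 lists. Of 25 leukocyte genes tested, 12 were DEGs lower in periosteum and none higher, with a median log2 fold change of -6.89. Retnlg, a secreted protein of neutrophils, was at 1734, 1140.1 and 601 in marrow and was listed at 0 in all 3 periosteum libraries (adjusted p = 0.00978). Coro1a, an actin-binding protein of blood cells, was at 626, 687 and 375 in marrow and was likewise listed at 0 in periosteum (adjusted p = 0.00978). Lyz2, lysozyme of myeloid cells, was at 77.6, 419 and 119 in periosteum and at 5234, 4454 and 2552 in marrow (log2 fold change -4.62, standard error 0.66, adjusted p = 0.00984). S100a8, an alarmin of neutrophils, was at 576, 1.72 and 0.504 against 9462, 9709 and 3029 (log2 fold change -8.94, standard error 2.08, adjusted p = 0.0473), and its call was lost with each library left out except periosteum replicate 1, with an adjusted p of up to 0.181. Mpo, myeloperoxidase of granulocyte precursors, was carried by 2 marrow libraries, at 6512, 16569 and 2.03, against 0, 0 and 26.3 in periosteum (adjusted p = 0.214).

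The summed leukocyte level was 1255 to 3006 in periosteum and 17770 to 70682 in marrow, although both groups had been sorted without CD45. Of the 32 genes written in the list, 15, 20 and 19 were at 0 in the periosteum libraries and 3, 1 and 3 in the marrow libraries. Of 10 megakaryocyte, basophil and mast cell genes 4 were DEGs lower in periosteum (median log2 fold change -4.58). Pf4, platelet factor 4, was at 217, 3349 and 715 in marrow and was listed at 0 in periosteum (adjusted p = 0.00984). Tubb1, the platelet tubulin, was at 53.3, 512 and 649 in marrow and also listed at 0 in periosteum (adjusted p = 0.0123). The leukocyte count was 5 without marrow replicate 1, 6 without marrow replicate 2, 8 without marrow replicate 3 or periosteum replicate 3, 11 without periosteum replicate 1 and 15 without periosteum replicate 2. Retnlg, Coro1a, Lyz2, Pf4 and Tubb1 were called each time. Of these, all but Lyz2 were at 0 in periosteum and could pass the filter only through marrow, so their separation was fixed in advance. The megakaryocyte, basophil and mast cell count was 3 without any 1 of the marrow libraries or periosteum replicate 1 and 5 without periosteum replicate 3. The part of blood cells in the other genes higher in marrow was not tested.

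Erythroid genes were abundant in both tissues. Of 23 tested, 8 were DEGs lower in periosteum and none higher, all 23 had a negative log2 fold change, and in 21 every periosteum library lay below every marrow library, where 18.6% of all genes tested had that order. The median log2 fold change was -1.94. Slc4a1, the anion exchanger of the red cell membrane, was at 3304, 3748 and 6361 in periosteum and at 12047, 14894 and 24577 in marrow (log2 fold change -1.94, standard error 0.37, adjusted p = 0.0238). Car1, carbonic anhydrase of red cells, was at 4184, 4034 and 4333 against 9931, 29523 and 26359.6 (log2 fold change -2.24, standard error 0.42, adjusted p = 0.0219). Rhd, the Rhesus blood group D protein, was at 1868, 1271 and 2760.2 against 4884, 9273 and 10406 (log2 fold change -2.06, standard error 0.41, adjusted p = 0.0269). None of the 4 globin genes was a DEG, although Hbb-bs had an adjusted p of 0.0462 at a log2 fold change of -1.20. Hba-a1, an alpha globin, was at 55420.3, 51560.4 and 62408 against 70779, 105551 and 125663 (log2 fold change -0.80, adjusted p = 0.165), and its reads cannot be told apart from those of the near-identical Hba-a2. Gata1, the master factor of the lineage, was at 1841, 0.81 and 899 against 2022, 4290 and 4644, with periosteum replicate 2 near 0 (adjusted p = 0.295). No erythroid gene was called without marrow replicate 2, marrow replicate 3 or periosteum replicate 1, and the count was 10 without marrow replicate 1, 8 without periosteum replicate 2 and 6 without periosteum replicate 3. The adjusted p of Slc4a1, Car1 and Rhd reached 0.1, 0.104 and 0.127 without marrow replicate 3. In these fits the median of the list stayed between -2.16 and -1.64.

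The upstream sequences of 2 erythroid DEGs are shown for a short motif that many promoters of the list hold. The GATA motif was searched as AGATAA, its form AGATAG with another last letter, and the forms TGATAA and also TGATAG that start with T, on both strands of the 250 bases before the start site in RefSeq (GRCm38.p6). It was present in 15 of 20 promoters of the 18 erythroid genes found there (75%) and in 8718 of all 32851 promoters (26.5%). For the 6 erythroid DEGs found there it was in 5 of 7 promoters (71.4%). A relation of the motif to the tissue difference was not tested. A match is a string of letters and no measured binding. The lines give the strand that carries the gene, 5′ to 3′, with the match in capitals, for Rhd at chr4:134864286-134864535 (plus strand) and for Trim10, an erythroid ubiquitin ligase gene, at chr17:36869324-36869573 (plus strand). The first base of the match lies 43 bases before the start site in Rhd and 163 bases before it in Trim10, where it is read on the other strand.
Rhd: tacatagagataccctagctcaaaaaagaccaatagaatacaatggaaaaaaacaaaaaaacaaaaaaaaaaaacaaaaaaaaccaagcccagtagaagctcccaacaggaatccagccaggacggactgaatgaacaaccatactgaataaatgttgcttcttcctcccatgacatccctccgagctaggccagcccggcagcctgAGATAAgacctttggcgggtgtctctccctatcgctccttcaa
Trim10: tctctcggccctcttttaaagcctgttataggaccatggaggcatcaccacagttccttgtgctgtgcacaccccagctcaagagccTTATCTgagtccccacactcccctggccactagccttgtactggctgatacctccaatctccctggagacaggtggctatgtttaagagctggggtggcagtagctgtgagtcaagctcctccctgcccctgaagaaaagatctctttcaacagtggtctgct

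Trim10 was at 358, 714 and 218 in periosteum and at 1474, 1713 and 2511 in marrow (log2 fold change -2.27, standard error 0.51, adjusted p = 0.0404). Its call was lost with every library left out except periosteum replicate 2, with an adjusted p of up to 0.193.

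Cell cycle genes were read as a G1/S and a G2/M list. Of 43 G1/S genes, 10 were DEGs lower in periosteum, and of 54 G2/M genes 9 were, with none higher in either list. The medians were -2.00 and -2.03, and 41 and 53 of the members had a negative log2 fold change. Rrm2, the small subunit of ribonucleotide reductase, was at 3498, 3096 and 3981 in periosteum and at 9725, 15069.6 and 16381 in marrow (log2 fold change -1.93, standard error 0.28, adjusted p = 0.0103, and 0.0518 without marrow replicate 3). Mcm6, a subunit of the replicative helicase, was at 2076, 3839 and 2477 against 6681, 10356 and 12808 (log2 fold change -1.83, standard error 0.35, adjusted p = 0.0242). Mki67, the proliferation antigen, was at 1377, 1332 and 2228 against 3781, 6132 and 4241 (log2 fold change -1.53, standard error 0.33, adjusted p = 0.0363). Cdc25c, the phosphatase that opens mitosis, was at 268, 228 and 478 in marrow and was listed at 0 in periosteum (adjusted p = 0.00978), and it was the only gene of both lists called whichever library was left out. With all periosteum values at 0, Cdc25c could pass the filter only through marrow. Its separation was thus fixed in advance, and its steady call is no firmer a result than the others. The adjusted p of Mcm6 was 0.105 and 0.117 without marrow replicates 2 and 3, 0.0785 without periosteum replicate 1 and 0.0636 without periosteum replicate 3, and that of Mki67 was 0.165, 0.132 and 0.0998 without marrow replicates 2 and 3 and periosteum replicate 1 and 0.0583 without periosteum replicate 2.

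The summed G1/S level was 34825 to 39755 in periosteum and 78471 to 150866 in marrow, and the summed G2/M level 39536 to 53899 and 89206 to 148624. With 1 library left out, the G1/S count was 1, 0 and 2 without marrow replicates 2 and 3 and periosteum replicate 1, and 10, 18 and 7 without marrow replicate 1 and periosteum replicates 2 and 3. The G2/M count was 1, 1 and 3, and 15, 16 and 15, in the same order. The medians of the lists stayed between -2.31 and -1.66 in all these fits. Within marrow, replicate 1 had the lowest sums of the G1/S, G2/M and erythroid lists, whereas within periosteum the lowest G1/S sum was in replicate 1 and the lowest G2/M and erythroid sums were in replicate 2. The part of erythroid precursors in the cell cycle difference was not tested.

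Upstream sequences of 2 G1/S DEGs are given for the motif that many replication genes hold. The E2F motif was searched as TTTCGCGC, TTTGGCGC or TTTCCCGC on both strands of the same 250 bases. It was present in 9 of 34 promoters of 31 G1/S genes (26.5%), in 3 of 52 promoters of 47 G2/M genes (5.77%) and in 504 of all 32851 promoters (1.53%). Mcm6 lies at chr1:128359706-128359955 (minus strand) and Pola1, the catalytic subunit of DNA polymerase alpha, at chrX:93632156-93632405 (minus strand). The matches of Mcm6 begin 110 and 47 bases before the start site, and another at 106 overlaps the first on the other strand. The match of Pola1 begins 138 bases before it on the other strand.
Mcm6: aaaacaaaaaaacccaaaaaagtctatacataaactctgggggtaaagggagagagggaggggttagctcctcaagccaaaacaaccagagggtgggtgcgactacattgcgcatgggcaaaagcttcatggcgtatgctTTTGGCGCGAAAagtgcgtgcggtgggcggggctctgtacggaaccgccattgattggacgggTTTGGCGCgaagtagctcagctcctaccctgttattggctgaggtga
Pola1: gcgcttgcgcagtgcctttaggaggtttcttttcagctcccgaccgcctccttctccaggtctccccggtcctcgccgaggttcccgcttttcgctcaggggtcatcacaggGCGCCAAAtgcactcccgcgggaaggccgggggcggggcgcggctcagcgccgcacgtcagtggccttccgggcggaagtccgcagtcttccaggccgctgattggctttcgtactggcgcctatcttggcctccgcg

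Pola1 was at 85.5, 42 and 340.04 in periosteum and at 1134, 1796 and 2065 in marrow (log2 fold change -3.90, standard error 0.79, adjusted p = 0.0289). The groups lay far apart, although the call was lost without any 1 of the marrow libraries (adjusted p = 0.0607, 0.134 and 0.148) or periosteum replicate 1 (0.0752).

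Outside the lists, genes were named by the size of the difference or by their level where the other tissue was listed at 0. Mfap4, a protein of elastic microfibrils, was at 5572, 6484 and 4419 in periosteum and was listed at 0 in all marrow libraries (adjusted p = 0.00388). Pthlh, parathyroid hormone-related protein, was at 1004, 815 and 981 and Cyp26a1, an enzyme that degrades retinoic acid, at 1485, 1070.5 and 253, and both were listed at 0 in marrow (adjusted p = 0.00978 each). Mfap4, Pthlh and Cyp26a1 were among 16 DEGs listed at 0 in all marrow libraries. Myoc, myocilin, an extracellular glycoprotein, was at 1644, 2175 and 1166 against 1.42, 0 and 0 (log2 fold change 10.23, standard error 1.14, adjusted p = 0.00978). Itgbl1, an integrin beta-like secreted protein, was at 3786, 3076 and 2174 against 0, 0 and 2.66 (log2 fold change 10.90, standard error 1.12, adjusted p = 0.00778). Ccl21a, a chemokine of lymphatic endothelium that guides dendritic cells, was at 5375, 940.3 and 3611 against 0, 0 and 2.73 (log2 fold change 10.73, standard error 1.25, adjusted p = 0.00978), and its near-identical copies make the assignment of its reads uncertain. All 6 were called with each library left out. However, all 6 were below 10 in every marrow library and could pass the filter only through periosteum. Their separation was thus fixed in advance. Among genes lower in periosteum outside the blood lists, Ssx2ip, a centrosomal protein, was at 0.486, 0 and 11.3 against 767, 1035 and 658 (log2 fold change -8.26, standard error 1.36, adjusted p = 0.0136). Plek, pleckstrin of platelets and leukocytes, was at 0, 0.858 and 3.82 against 214, 1479 and 789.9 (log2 fold change -8.25, standard error 1.33, adjusted p = 0.0127). Plek was below 10 in all periosteum libraries and could pass the filter only through marrow. The Ssx2ip and Plek calls were lost without marrow replicate 2 (adjusted p = 0.0765 and 0.0575) or marrow replicate 3 (0.0768 and 0.0698).

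Whether the tissue difference was the same in the other sorted fractions was tested as a difference of differences over the 18 periosteum and marrow libraries. Against P1, 24 of 17733 genes (0.135%) passed the thresholds, 22 with a periosteum minus marrow difference larger in P3. A larger difference in this sense need not be an excess in periosteum P3. Against P2, 476 genes (2.68%) did, 365 larger and 111 smaller in P3. These splits depended on the scaling, since quantile normalization gave 102 larger and 155 smaller against P2 and rescaling to the same total gave 14 larger and 31 smaller against P1. The P1 test rested on few genes and depended on the libraries, with 3 genes without marrow replicate 2, 8 without marrow replicate 3, 15 and 10 without periosteum replicates 1 and 3, and 21 and 23 without marrow replicate 1 and periosteum replicate 2. The P2 count was 312 without marrow replicate 3 and up to 547 without periosteum replicate 2. All these tests share the 6 P3 libraries, so the results are given side by side.

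Sparc differed from both fractions in opposite directions. Its mean was 75024 ± 21912 in periosteum P3 and 14398 ± 2706 in marrow P3, 306804 ± 71936 and 566055 ± 42695 in P1, and 77515 ± 27814 and 534 ± 81.4 in P2 (SD, n = 3). The tissue difference of P3 exceeded that of P1 by 3.26 on the log2 scale (standard error 0.36, adjusted p = 0.000925) and was below that of P2 by -4.77 (standard error 0.36, adjusted p = 3e-06). Dcn had means of 42987 ± 15058 and 2097 ± 762 in P3, 87531 ± 23905 and 85593 ± 12452 in P1, and 24441 ± 19026 and 115 ± 50.2 in P2. Its differences of differences were 4.38 against P1 and -3.02 against P2 (limma, adjusted p = 0.032 and 0.0412). For both matrix genes the marrow mean was highest in P1, lower in P3 and lowest in P2.

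Cd200 was 4527 ± 943 in periosteum and 609.7 ± 256 in marrow in P3, 3064 ± 786 and 6725 ± 684 in P1, and 23 ± 25.8 and 50 ± 26.3 in P2 (SD, n = 3). P1 was gated as CD200+ and P2 as CD200-, so their levels follow the gate. The tissue difference of P3 exceeded that of P2 by 4.41 (standard error 0.94, adjusted p = 0.0163), and against P1 the value of 4.11 had an adjusted p of 0.117. Ccl21a was at 3309 ± 2233 in periosteum P3 against at most 24.6 ± 17.5 in the other 5 groups of these tissues, while muscle P3, the CD105+ fraction of muscle, was at 4706 ± 1021. Its tissue difference in P3 differed from P1 by 9.14 (standard error 1.45, adjusted p = 0.0228) and from P2 by 14.77 (standard error 1.45, adjusted p = 9.84e-05). Mfap4 and Acta2 were high in periosteum P1 and P3 and not in P2. Mfap4 was 8267 ± 5650.4 in periosteum P1 and 8.95 ± 1.91 in periosteum P2, with a difference of 10.62 against P2 (adjusted p = 0.00192) and 0.93 against P1 (adjusted p = 0.945). Pth1r was higher in marrow in P1 and P3 and higher in periosteum in P2, at 764 ± 733 and 13582 ± 5304 in P1 and 1551 ± 616 and 19.4 ± 33.6 in P2, and its P3 difference was below that of P2 by -15.86 (standard error 2.03, adjusted p = 0.00145). Eng itself gave 2.40 and 2.35 against P1 and P2 with standard errors of 1.89 (adjusted p = 0.839 and 0.61).

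**Figure D5:**
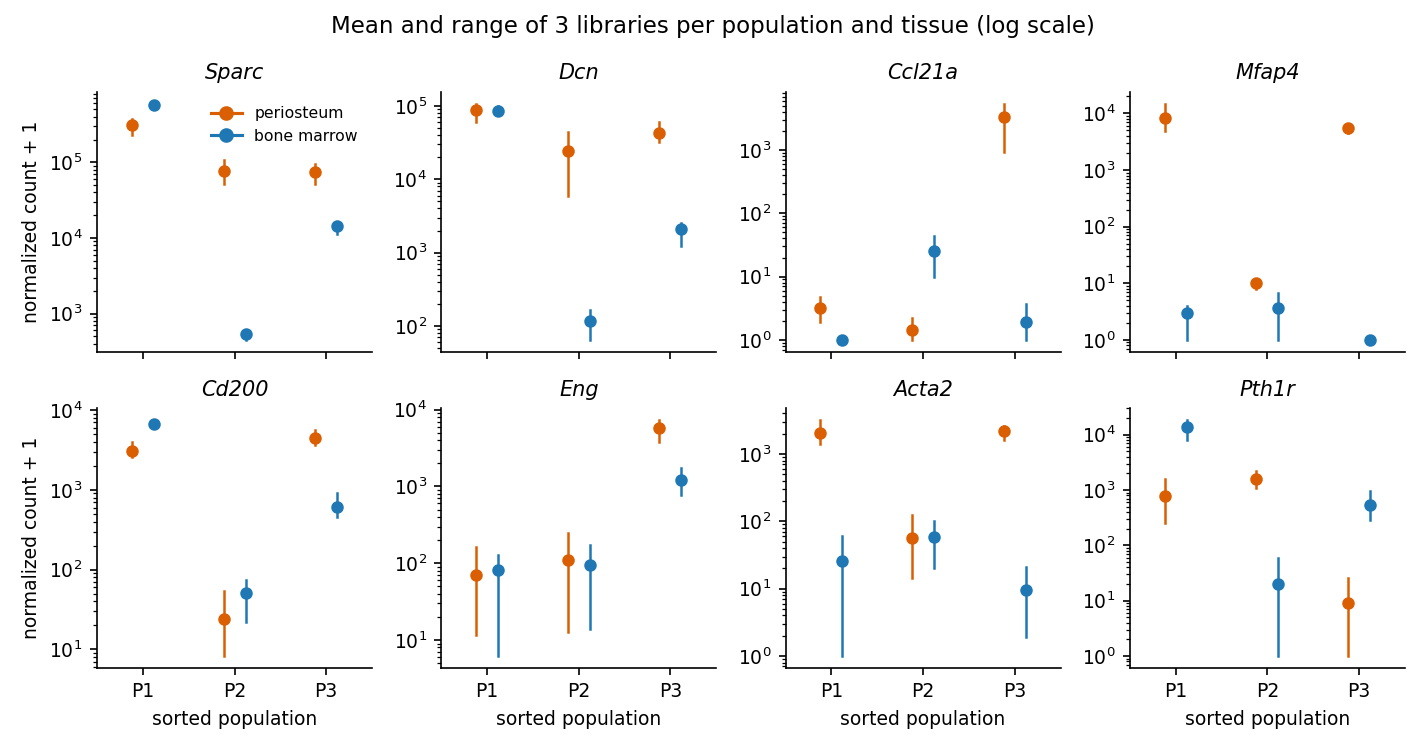
Mean (point) and range (line) of normalized count plus 1 (log axes) over 3 libraries for 8 genes in periosteum (orange) and bone marrow (blue) P1, P2 and P3. Among these groups Ccl21a is high in periosteum P3 (muscle P3, not drawn, had a mean of 4706), Eng is highest in the P3 groups, and the tissue order of Sparc, Cd200 and Pth1r is not the same in the 3 fractions.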

How the data were processed

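RNA was measured in sorted Prx1-tdTomato cells by full-length cDNA libraries (SMART-Seq v4, Nextera XT), with 3 libraries per group. The authors trimmed reads with Trim Galore, aligned them with STAR and used DESeq2. The genome build and the counting tool are not given in the sources used here. The deposited values are a signal, namely normalized counts per gene, not per length, for 30154 entries in 27 libraries. The 6 libraries summed to 8639660 to 11988767. These are sums of normalized values, so the read depth itself is unknown and no counting interval is given.

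Groups were taken from the labels. Values were taken as log2(normalized count + 1), and genes with at least 10 in at least 3 of the 6 P3 libraries were kept (13114). limma 3.58.1 (R 4.3.3; linear model, empirical Bayes with trend) was fitted to the 6 libraries, two-sided, with Benjamini-Hochberg adjustment over all genes tested. DEGs had to pass an adjusted p of 0.05 and to exceed a log2 fold change of 1.5 in either direction. Fold changes on this scale understate the change of low genes. The difference of tissue differences was fitted to the 18 periosteum and marrow libraries. The study used 3 mice per group and took tissues from the same animals, but which animal gave which library is not stated, and p-values measure the spread between these libraries.

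Named genes were the sorting genes, genes the study names, in each direction the 6 DEGs with the largest fold change and the 3 highest listed at 0 in the other tissue, the 4 members with the highest mean in each list, and the 3 genes with the largest contrast in each direction of each difference of differences. The members and lists were chosen with earlier results of these data known. The alternatives were other pseudocounts (0.1 and 5), filters, normalizations, thresholds, variance models and sample sets, a replicate block, and each library left out. In simulated data with 200 changed genes among 13114, a log2 change of 3 was recovered for 39 and one of 6 for 133. Among 17733 genes, the test against P1 recovered 7 and 81 and the test against P2 0 and 81 of 200, so a P1 or P2 contrast that did not pass says little. The simulated noise was Gaussian, with a single SD per gene pooled over the groups, and only genes above a minimum mean were changed. The real periosteum libraries spread more than those of marrow, so the recovered numbers need not hold for the real data.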

Additional observations from a re-analysis of the deposited data

Results flagged for a closer look

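For 26 of the named genes the tissue difference of P3 differed from that of P1 or P2 in a direct test of the difference (limma, adjusted over 17733 genes, of which 0.135% passed against P1 and 2.68% against P2), and the values are differences on the log2 scale. Cyb561a3, Exoc3l4, Xdh, Slc20a1, Ccl21a, Dio2, Nos2, Prss50, Pth1r and Slc7a6 were named for the size of these same contrasts, so their values are a description. Against P1, Sparc (3.26), Dcn (4.38), Ccl21a (9.14), Cyb561a3 (11.46), Exoc3l4 (12.28) and Xdh (12.28) had a larger periosteum minus marrow difference in P3, and Slc20a1 a smaller one (-3.99). Within P3, Exoc3l4, Xdh and Slc20a1 were not DEGs (limma, adjusted p = 0.215, 0.173 and 0.745), and the log2 fold change of Slc20a1 was -0.22. Cyb561a3 did not pass the filter in P3, at 0, 312 and 238 in periosteum. Xdh and Exoc3l4 were low in periosteum P1, with means of 0.879 and 0, and were at 335 and 220.1 in periosteum P3. In marrow the order was the reverse, with means of 308 and 263 in P1 and 26.9 and 36.1 in P3. The contrasts therefore rest on both tissues.

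Against P2, the periosteum minus marrow difference was larger in P3 for Acta2 (8.80), Esam (7.92), Mcam (7.49) and Pecam1 (4.14), whereas the other named endothelial and mural genes did not pass, with Fabp4 at 4.76 (adjusted p = 0.217), Flt1 at 2.76 (0.522), Abcc9 at 0.78 (0.893) and Pdgfrb at -1.26 (0.654). It was also larger for Ccl21a (14.77), Mfap4 (10.62), Cyp26a1 (10.86), Dio2 (12.64), Nos2 (11.81), Cd200 (4.41) and Ltbp1 (4.27). The difference was smaller in P3 for Sparc (-4.77), Bgn (-3.76), Dcn (-3.02), Col2a1 (-6.22), Col6a1 (-4.87) and Col6a2 (-5.26), for Ctgf (-6.48) and Jun (-3.46), and for Pth1r (-15.86), Prss50 (-14.54) and Slc7a6 (-9.28). Within P3, Pth1r and Prss50 were lower in periosteum (log2 fold change -7.30 and -7.23), and Slc7a6 was not a DEG (0.12). Col2a1 had a mean of 401900 in periosteum P2 and 201 in marrow P2, against 52665 and 3014 in P3. Not all matrix genes had that direction, since Cilp was at 7.51 (adjusted p = 0.0557), Thbs4 at 7.02 (0.0514) and Chad at 0.15 (0.981) and did not pass. All these comparisons share the P3 libraries.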

How the results depend on the processing

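All 60 named DEGs kept their direction under every alternative, and 26 were called under each. The libraries of every DEG were separated between the tissues, so only the other normalizations could have turned a sign. Under the remaining alternatives the kept direction was fixed in advance. The count of 816 DEGs became 316 without a filter on low values (68.4% higher), 1347 with all 27 libraries in the fit, and 318 to 1161 with 1 library left out. The share of higher calls was 64.8% with a mean of at least 50 and 49.9% as reported. Of the listed genes, 134 were DEGs, 81 without the filter, 71 without the variance trend, and 49 to 148 with 1 library left out. The 24 genes that differed from P1 became 45 after rescaling to the same total (31.1% larger in P3, against 91.7%), 101 with all libraries and 3 to 23 with 1 left out, and after quantile normalization 43.8% were larger. The 476 that differed from P2 became 874 without the filter, 190 with a mean of at least 50, 257 after quantile normalization (39.7% larger in P3, against 76.7%), 943 with all libraries and 312 to 547 with 1 left out. The replicate block gave 687 DEGs, 9 genes against P1 and 443 against P2. Same-numbered libraries did not deviate together (residual r 0.021, 0.011 and 0.0054). With so few libraries per tissue, that cannot settle whether the numbers pair the samples by animal. Genes that were not DEGs turned sign after quantile normalization (Mmp9 -0.24, Mylpf 0.24, Sfrp4 -0.11, Tnc -0.16), after rescaling (Runx2 -0.0302, Sfrp4 -0.0469, Slc7a6 -0.0214, Tnc -0.0184, Ttn -0.0426) and with a pseudocount of 0.1 (Ttn -0.16). With 1 library left out, Abcc9 ranged from -2.13 to 0.25, Bmp1 from -0.0088 to 1.28, Bmp4 from -0.00099 to 1.22, Kit from -4.44 to 0.49, Mbp from -2.42 to 0.44, Mmp9 from -1.99 to 1.81, Mylpf from -2.75 to 0.42, Runx2 from -0.69 to 1.16, Sfrp4 from -0.33 to 0.67, Slc7a6 from -1.34 to 1.60, Tgfbr3 from -0.30 to 0.91, Tnc from -0.19 to 0.64, Ttn from -1.34 to 2.39 and Vcam1 from -0.78 to 0.30. The cause was not tested.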
